A study of Mus musculus with 9 samples.

Results

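Laminin chain and integrin subunit genes were taken from the count table of 9 lung RNA-seq libraries by symbol, with a minimum of 10 counts in at least 3 of them. Of 21983 gene symbols in the table, 38 matched the names and 37 met the minimum: 11 laminin chains and 26 integrin genes, of which 16 were alpha subunits and 10 were beta subunits or beta-like genes. Lama1 lay just inside the minimum, with 10 or more counts in exactly 3 libraries, and Itgad just outside, with 10 or more in 1 library and a highest count of 10. All 37 passed the filter of the test across genes, which kept 14739. Not every mouse integrin gene was analysed here.

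Laminins are secreted trimers of 1 alpha, 1 beta and 1 gamma chain that build the basement membrane, the thin matrix sheet under epithelium and endothelium and around muscle and fat cells. Integrins are cell surface receptors made of an alpha and a beta subunit, which bind laminins, collagens, fibronectin and other matrix proteins, or ligands on other cells. In the lung, laminins and their integrins hold the alveolar and airway epithelium to its base, while leukocytes carry their own set of integrins for adhesion, migration and uptake of complement-coated particles.

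The mice were of the inbred strain BALB/c and formed 3 groups with 3 libraries each. The BSYQF group had chronic asthma and received a Chinese herbal mixture, the Bu-Shen-Yi-Qi formula, by mouth at 20 g of raw herbs per kg from day 14, for 6 weeks. The asthma group had the same disease model and received saline by mouth, and the control group consisted of normal mice that received saline. The sources used here do not give how asthma was induced, how many mice a library stands for or their age, and the labels call the libraries replicates without tying each to a different mouse. The p-values below therefore rest on the spread of these libraries alone, and some of it may be technical.

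Libraries held 16286385 to 22819199 counts, with asthma replicate 3 the deepest. Along the first principal component (51.6% of the variance) asthma replicate 3 and BSYQF replicate 1 lay away from the rest of their own groups. Asthma replicate 2 had 10.3% of its counts on mitochondrial genes, against 2.19% to 6.53% in the other 8 libraries. Asthma replicates 1 and 3, at 5.05% and 3.77%, also lay above all controls, at 2.68%, 2.19% and 3.46%. This share therefore cannot be separated from the difference between asthma and control. BSYQF libraries had 6.53%, 3.61% and 2.64%. As a check of the tissue, 4 of 4 markers of alveolar type 2 cells were at 402 CPM or more in every library. CPM are counts scaled to the size and composition of each library. Each mean is given ± SD over 3 libraries, each change as log2 fold change ± SE, and each adjusted p comes from the quasi-likelihood test of edgeR, adjusted by Benjamini-Hochberg over all 14739 genes. A gene was called when this value was under 0.05.

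To set the levels of different genes side by side, CPM were divided by the length of the gene's merged exons in kb. In control lungs the level per length was highest for Itgb1, the beta subunit shared by most matrix-binding integrins, at 240.4 ± 9.74 CPM per kb. Itga3, which pairs with it into a laminin receptor of epithelium, followed at 50.8 ± 4.83 CPM per kb, and Itgb5, a partner of the alphav subunit, at 42.5 ± 4.47 CPM per kb. The intervals of 1 SD around Itga3 and Itgb5 overlapped, so their order was not resolved, whereas Itgb1 stood clear of both.

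The leading laminin chains per length in control lungs were Lamb2, at 36.5 ± 3.13 CPM per kb, and Lamc1, at 29.9 ± 1.19 CPM per kb, which are chains of many laminin trimers. Among alpha chains Lama5 had the top mean, at 13.2 ± 0.613 CPM per kb, and Lama3, the alpha chain of the epithelial anchoring laminin, had 12.8 ± 2.76 CPM per kb, a difference within the spread. Lama1, a chain best known from embryonic basement membranes, was lowest of all members at 0.0315 ± 0.0359 CPM per kb, and had 0 counts in asthma replicates 2 and 3. Among leukocyte integrins the shared beta subunit Itgb2 stood at 29.1 ± 7.88 CPM per kb, and Itgax, Itgam and Itgae were at 6.496 ± 0.164, 3.05 ± 0.515 and 1.88 ± 0.434 CPM per kb. Dividing by the longest transcript in place of all merged exons kept the order of the first 6 genes.

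**Figure D1:**
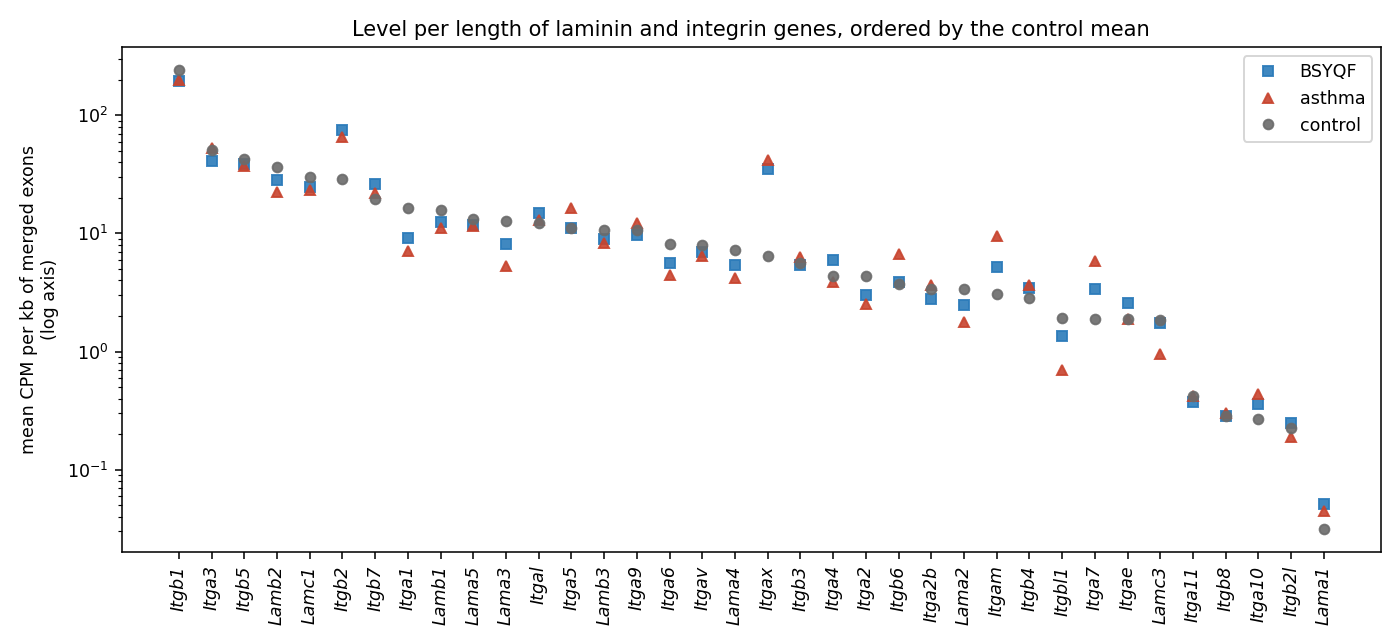
Mean level of 36 of the 37 genes in BSYQF (squares), asthma (triangles) and control (circles) lungs, in CPM per kb of merged exons on a log axis, ordered by the control mean; each symbol is the mean of 3 libraries. Itgb1 is highest and Lama1 lowest in each group, and Itgax, Itgam and Itga7 show the widest gaps above control.

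The comparison of asthma with control lungs asks what the disease model changed. Among the 37 genes, 4 rose (Itgax, Itgam, Itgb2 and Itga7) and 1 fell (Itga1), where over all genes tested 8.23% rose and 4.45% fell. The 3 leukocyte genes among them encode the 2 alpha subunits and the shared beta subunit of CD11c/CD18 and CD11b/CD18, the beta2 integrins of myeloid cells. The 21 other integrin genes and the 11 laminin chains did not pass. At an unadjusted p under 0.05 there were 7 higher and 10 lower members, against 19% and 15.1% of all genes. DESeq2 called 5 higher and 8 lower members, against 12.1% and 9.73% of all genes with an adjusted p.

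The counts of calls depended on single libraries, among the members and over all genes alike. Without asthma replicate 3, 7 members rose and 9 fell, against 14.8% and 13.7% of all genes. Without asthma replicate 1 or asthma replicate 2, 2 rose (Itga7 and Itgam) and 0 fell, where over all genes 1.01% and 1.38% rose and 0.134% and 0.281% fell. Leaving out control replicate 1 or 2 also left 2 higher, leaving out control replicate 2 or 3 left 0 lower, and without BSYQF replicate 1 there were 4 lower. Over all genes, 0.95% to 2.08% rose and 0.268% to 0.858% fell without 1 control, and 7.58% fell without BSYQF replicate 1. Itga7 and Itgam were called in 9 of 9 fits that each left out 1 library, Itga1 in 5, Itgax in 4 and Itgb2 in 3. Libraries of the groups did not overlap for 5 higher and 13 lower members, against 22% and 18.4% of all genes tested.

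**Figure D2:**
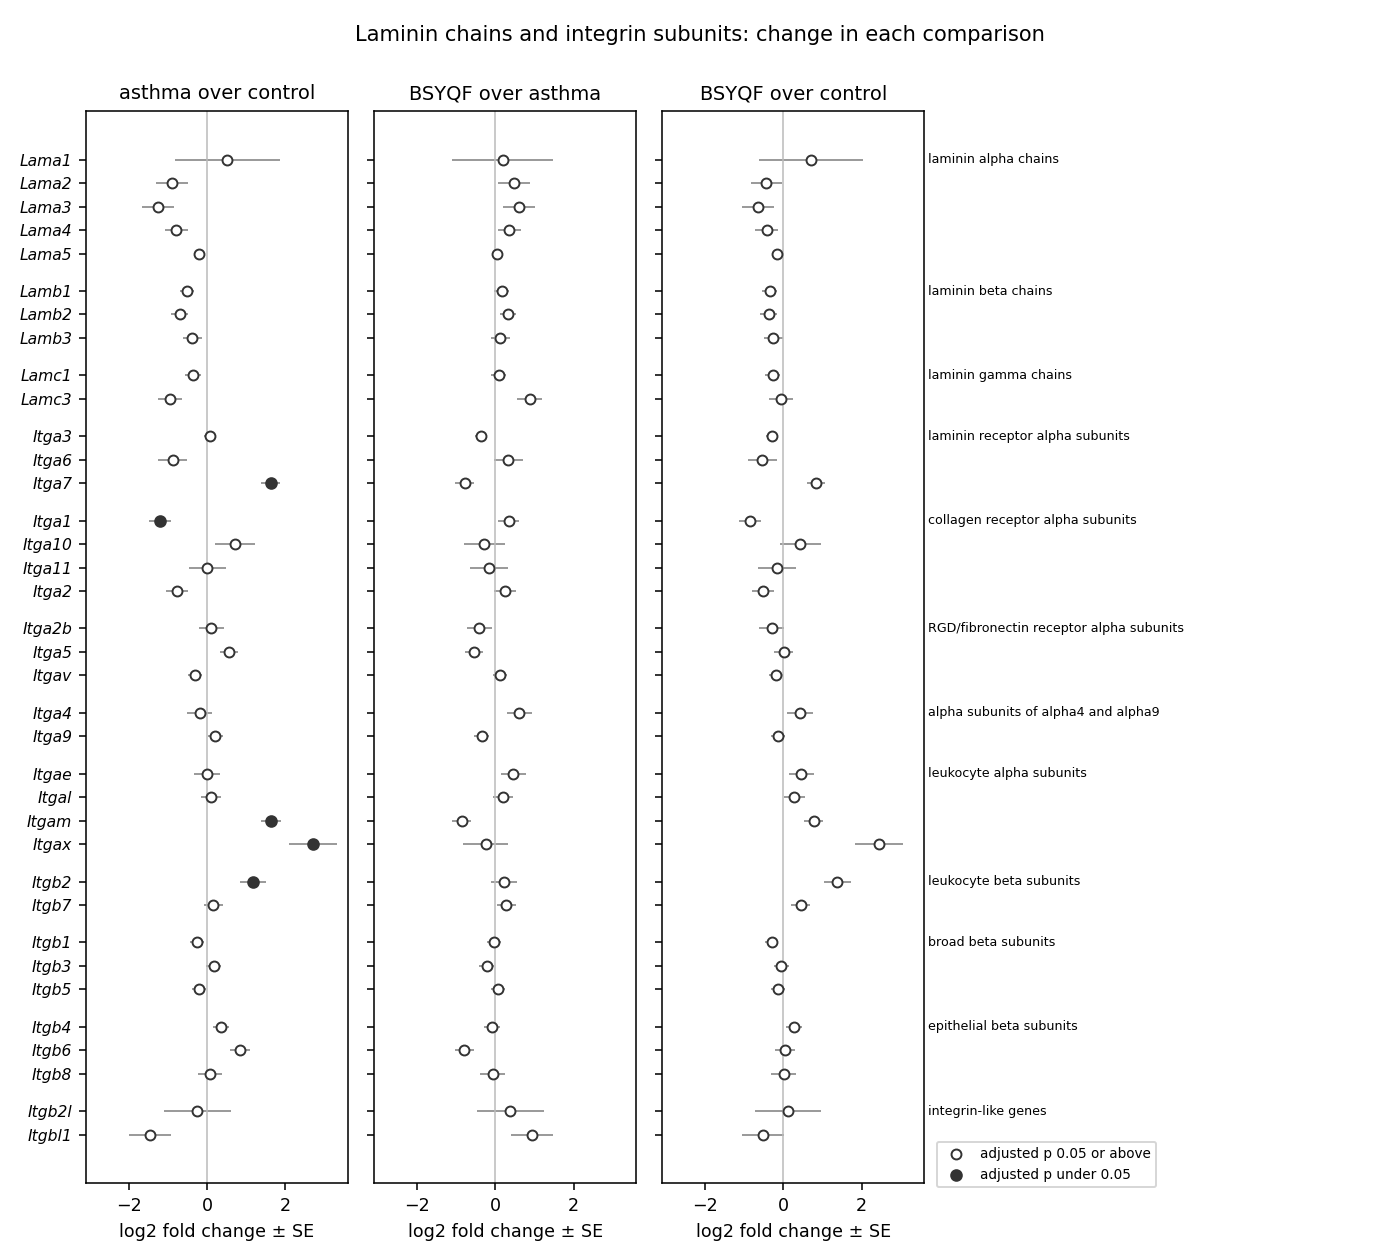
Change of 36 of the 37 genes, ordered by role, as log2 fold change ± SE in 3 comparisons: asthma over control, BSYQF over asthma and BSYQF over control. Filled points mark an adjusted p under 0.05; the 5 filled points all lie in asthma over control, with Itgax furthest right at 2.69 and Itga1 the single one left of 0 at -1.20.

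Itgax, the alpha subunit CD11c of alveolar macrophages and dendritic cells, had 207, 291 and 108 CPM in asthma replicates 1, 2 and 3, against 30.4, 32.0 and 31.2 CPM in control lungs. The asthma libraries all lay above the controls, which were nearly equal to each other, but differed widely among themselves. The log2 fold change was 2.69 ± 0.61 (adjusted p = 0.0292), a 6.47-fold higher level, and the call was lost without asthma replicate 1 or 2 or any 1 control (adjusted p = 0.0828 to 0.124). BSYQF replicates 1, 2 and 3 had 342, 116 and 53.0 CPM, so they held both the highest of all 9 libraries and, in replicate 3, one below every asthma library.

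Itgam, the alpha subunit CD11b of monocytes, granulocytes and tissue macrophages, had 56.0, 52.6 and 33.8 CPM in asthma lungs and 16.8, 16.8 and 12.3 CPM in control lungs. All 3 asthma libraries lay above all controls. Its log2 fold change was 1.63 ± 0.25 (adjusted p = 0.00813). The 3 BSYQF lungs, at 21.4, 34.0 and 23.2 CPM, lay above all controls, and 2 of them below all asthma lungs.

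Itgb2, the beta subunit CD18 that every beta2 integrin needs, had 256, 209 and 133 CPM in asthma lungs and 79.9, 116 and 70.6 CPM in control lungs. The groups did not overlap, though asthma replicate 3 came close to control replicate 2. The log2 fold change was 1.17 ± 0.34 (adjusted p = 0.0467), the largest p of the 5 calls. It was lost with limma voom (adjusted p = 0.0504), with no filter on low counts (0.0537), and without asthma replicate 1 or 2, BSYQF replicate 2 or any 1 control (0.0597 to 0.160). In the BSYQF lungs Itgb2 stood at 360.0, 162 and 171 CPM, all above the controls.

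Itgal, the alpha subunit of the lymphocyte integrin LFA-1, and Itgae, which marks epithelium-bound T cells and some dendritic cells, were not called. Itgal had 97.5 ± 26.2 CPM in BSYQF, 85.8 ± 19.5 CPM in asthma and 80.3 ± 24.8 CPM in control lungs. Itgae had 11.8 ± 3.03, 8.58 ± 3.23 and 8.62 ± 1.99 CPM in BSYQF, asthma and control lungs. Itgb7, the partner of Itgae and Itga4, had 73.3 ± 15.8 CPM in BSYQF, 60.3 ± 13.9 CPM in asthma and 53.9 ± 16.2 CPM in control lungs. All 3 genes overlapped between the groups.

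Within each library the ratio of Itgax, Itgam and Itgal to Itgb2 was taken as log2 of CPM + 0.5, with no test. Itgam over Itgb2 averaged -3.04 ± 0.915 in BSYQF, -2.04 ± 0.123 in asthma and -2.48 ± 0.266 in control lungs. Itgax over Itgb2 averaged -0.75 ± 0.83 in BSYQF, -0.04 ± 0.45 in asthma and -1.46 ± 0.35 in control lungs. Itgal over Itgb2 averaged -1.17 ± 0.96 in BSYQF, -1.19 ± 0.36 in asthma and -0.15 ± 0.17 in control lungs. Relative to their common partner, Itgax and Itgam transcripts were thus higher by 1.42 and 0.434 in asthma compared with control, on the log2 scale. The difference for Itgal was -1.03. Itgal alone lay at 0.095 ± 0.256 and Itgb2 alone at 1.17 ± 0.34 in asthma over control. The 6 leukocyte genes Itgax, Itgam, Itgal, Itgae, Itgb2 and Itgb7 made up 34.9%, 20.0% and 19.7% of all integrin CPM in BSYQF lungs, 24.2%, 30.7% and 16.6% in asthma lungs, and 10.1%, 12.5% and 10.2% in control lungs. All 6 libraries of mice with asthma lay above the 3 controls in this share, while the integrin sum was similar, at 2446 ± 41.9, 2531 ± 196 and 2524 ± 242 CPM in BSYQF, asthma and control lungs.

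**Figure D3:**
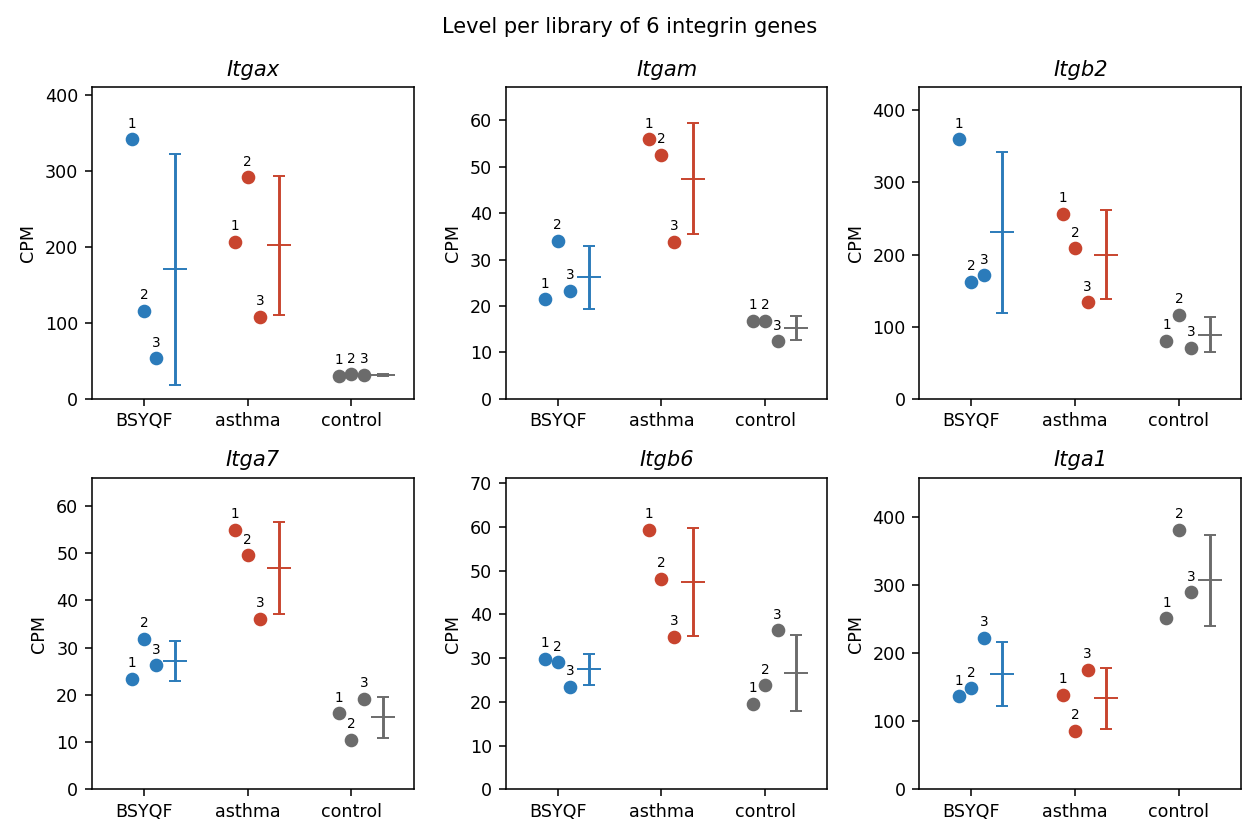
Level in CPM of 6 integrin genes in each library of BSYQF, asthma and control lungs; numbers are replicate numbers and the bars beside the points show mean ± SD. Itgax, Itgam, Itgb2 and Itga7 lie above all controls in every asthma library, Itga1 lies below them, and Itgb6 overlaps with control.

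Macrophage markers and some dendritic cell markers rose beside these genes. Of 7 macrophage markers (C1qa, C1qb, C1qc, Adgre1, Mrc1, Cd68 and Csf1r) 6 were called higher in asthma lungs, with a median log2 fold change of 1.97, and 0 were lower. Their summed level was 576 to 1018 CPM in BSYQF, 848 to 953 CPM in asthma and 285 to 379 CPM in control lungs. Of 6 dendritic cell markers 3 rose (Flt3, Xcr1 and Fscn1) and 0 fell, with Clec9a lower at an unadjusted p under 0.05 (-0.53 ± 0.17, adjusted p = 0.0653) and Zbtb46 at -0.33 ± 0.23; the sums were 139 to 169, 158 to 210.0 and 118 to 144 CPM in BSYQF, asthma and control lungs. Of 3 general leukocyte markers 1 was higher (880 to 1106, 697 to 1156 and 442.5 to 760.2 CPM in BSYQF, asthma and control lungs). Of 4 neutrophil, 3 T cell, 4 B cell and 4 mast cell markers 0 were called. None of these marker genes was at 0 in any library. In bulk lung RNA more cells of a type and more RNA per cell cannot be told apart, and the part of these cells in the result was not tested.

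Itgam and Itgax lie on mouse chromosome 7 (GRCm38, the mm10 build), both on the plus strand, at 128062640 to 128118491 and at 128129547 to 128150657, with 11055 bases between them; Itgal lies 727501 bases before Itgam. Itgb2 is on chromosome 10 at 77530252 to 77565708, plus strand. Since the neighbours Itgam and Itgax both rose, their promoter windows from RefSeq (GRCm38.p6, 250 bases before to 50 after the start of the gene) are shown 5′ to 3′ on the gene's strand, chr7:128062390-128062689 for Itgam and chr7:128129300-128129599 for Itgax. Capitals mark GAGGAA or its reverse complement TTCCTC, searched on both strands, a form of the sites bound by PU.1, an ETS-family factor that regulates myeloid genes.
Itgam: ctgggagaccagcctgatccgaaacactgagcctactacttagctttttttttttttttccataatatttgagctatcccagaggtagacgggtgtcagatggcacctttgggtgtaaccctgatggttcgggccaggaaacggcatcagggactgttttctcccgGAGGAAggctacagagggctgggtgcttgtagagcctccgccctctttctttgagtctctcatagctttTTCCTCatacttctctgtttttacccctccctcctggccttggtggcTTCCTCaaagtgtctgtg
Itgax: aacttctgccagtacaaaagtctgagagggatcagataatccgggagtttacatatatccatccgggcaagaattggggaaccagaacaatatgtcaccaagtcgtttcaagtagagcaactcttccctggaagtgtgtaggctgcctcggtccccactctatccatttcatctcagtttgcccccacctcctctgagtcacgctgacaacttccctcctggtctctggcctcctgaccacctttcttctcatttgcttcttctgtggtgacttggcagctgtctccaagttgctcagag
The Itgam window held 3 matches to this string and the Itgax window 0. The shorter GGAA, which occurs in both windows, was not counted. GAGGAA was present on either strand in 28.3% of 32851 promoter windows of 300 bases and in 15 of the 27 windows found for 24 of the 37 members. These letters describe the windows and were not tested against the expression data.

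Of the 3 laminin receptor alpha subunits 1 rose. Itga7, the alpha subunit that ties muscle cells to laminin, had 54.9, 49.5 and 36.1 CPM in asthma lungs and 16.1, 10.5 and 19.1 CPM in control lungs. Its asthma and control libraries did not overlap, and the log2 fold change was 1.62 ± 0.24 (adjusted p = 0.00811). In BSYQF lungs it had 23.4, 31.9 and 26.2 CPM, between the other groups without overlap with either. Of 5 smooth muscle markers (Acta2, Myh11, Tagln, Actg2 and Des) 0 were called in asthma against control, with 2 higher at an unadjusted p under 0.05 and sums of 685 to 1023, 863 to 1227 and 686 to 1042 CPM in BSYQF, asthma and control lungs. All 5 heart-type muscle markers (Myl4, Myl7, Nppa, Tnnt2 and Myh6) fell in asthma, with sums of 332 to 1172, 73.3 to 149.5 and 337 to 766 CPM in BSYQF, asthma and control lungs, the other direction from Itga7. The part of muscle cells in the level of Itga7 was not tested.

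Itga6, which pairs with Itgb1 or with Itgb4 in the hemidesmosome, had 50.3 ± 20.9 CPM in BSYQF, 39.8 ± 17.6 CPM in asthma and 73.2 ± 15.98 CPM in control lungs. In asthma against control this was -0.88 ± 0.37 on the log2 scale and not called (adjusted p = 0.123). Itga3 had 235 ± 19.5, 303 ± 38.7 and 289.8 ± 27.6 CPM in BSYQF, asthma and control lungs. Itgb4, the hemidesmosome beta subunit, had 24.1 ± 2.46, 25.4 ± 4.57 and 20.0 ± 4.36 CPM in BSYQF, asthma and control lungs. Itga7 lies on chromosome 10 at 128933818 to 128958282, plus strand.

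Among the 4 collagen receptor alpha subunits, Itga1 fell. Itga1, the alpha subunit of a receptor for basement membrane collagen found on mesenchymal, endothelial and some T cells, had 139, 86.1 and 175 CPM in asthma lungs and 250.9, 381 and 289 CPM in control lungs. Every asthma library lay below every control. The log2 fold change was -1.20 ± 0.28 (adjusted p = 0.0245), that is 0.434 times the control level, and the call was lost without asthma replicate 1 or 2 or control replicate 2 or 3 (adjusted p = 0.0595 to 0.103). The BSYQF lungs, at 137, 148 and 222 CPM, also lay below all controls. Itga1 is on the minus strand of chromosome 13 at 114953096 to 115101964.

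Itga2, its neighbour 20995 bases away and the alpha subunit of the collagen receptor of platelets and epithelium, had 21.5 ± 6.70 CPM in BSYQF, 18.03 ± 3.65 CPM in asthma and 31.0 ± 9.69 CPM in control lungs (asthma over control -0.78 ± 0.28, adjusted p = 0.0815). Itga10 and Itga11, receptors of cartilage and of fibroblasts, were low, with group means between 1.38 and 2.29 CPM. Of 5 endothelial markers (Pecam1, Cdh5, Kdr, Cldn5 and Tek) 1 fell and 3 were lower at an unadjusted p under 0.05, with sums of 2708 to 2857, 1876 to 3224 and 2928 to 4284 CPM in BSYQF, asthma and control lungs. Fibroblast markers were called in 0 of 5 and went both ways, with Pdgfra, Tcf21 and Dcn lower and Col1a1 and Col1a2 higher at an unadjusted p under 0.05 and without overlap, and sums of 1104 to 1317, 995 to 1428 and 1255 to 1574 CPM in BSYQF, asthma and control lungs. The part of these cells in the level of Itga1 was not tested.

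Of the 3 RGD and fibronectin receptor alpha subunits, which bind the arginine-glycine-aspartate motif, 0 were called in asthma against control. Itga5, the fibronectin receptor, had the largest log2 fold change of them at 0.55 ± 0.23 (adjusted p = 0.122), with 54.8 ± 12.2 CPM in BSYQF, 80.2 ± 25.8 CPM in asthma and 54.7 ± 3.11 CPM in control lungs. Itgav had 75.1 ± 12.7, 69.0 ± 15.2 and 85.8 ± 6.34 CPM in BSYQF, asthma and control lungs, and the platelet subunit Itga2b 15.1 ± 3.83, 20.1 ± 6.35 and 18.6 ± 6.77 CPM in BSYQF, asthma and control lungs. Of 4 platelet markers, Itga2b among them, 1 rose in asthma, with sums of 30.5 to 98.7, 77.4 to 139 and 38.2 to 75.9 CPM in BSYQF, asthma and control lungs. Itga4 and Itga9, the subunits that bind VCAM-1, osteopontin and tenascin-C, were not called either. Itga4, mainly of leukocytes, had 82.5 ± 36.9, 53.8 ± 11.2 and 61.4 ± 23.9 CPM, and Itga9, of airway epithelium and smooth muscle, 74.0 ± 18.4, 94.4 ± 7.82 and 81.7 ± 8.73 CPM in BSYQF, asthma and control lungs.

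The widely expressed beta subunits Itgb1, Itgb3 and Itgb5 were not called, with log2 fold changes of at most 0.27 in size in asthma against control. Itgb1 had 796 ± 64.2 CPM in BSYQF, 816 ± 128 CPM in asthma and 981 ± 39.8 CPM in control lungs. Itgb3, the platelet and vascular subunit, had 32.0 ± 4.75, 37.3 ± 5.33 and 33.3 ± 7.47 CPM in BSYQF, asthma and control lungs, and Itgb5 138 ± 13.6, 131 ± 28.2 and 151 ± 15.9 CPM in BSYQF, asthma and control lungs. Itgb1 held 60.2% ± 5.56, 61.6% ± 5.52 and 72.3% ± 2.08 of all integrin beta CPM in BSYQF, asthma and control lungs.

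Itgb6, the epithelial subunit that with Itgav activates latent TGF-beta, came close to a call in asthma against control. It had 59.4, 48.2 and 34.8 CPM in asthma lungs and 19.6, 23.7 and 36.3 CPM in control lungs, so that control replicate 3 overlapped with asthma replicate 3. The log2 fold change was 0.84 ± 0.25 (adjusted p = 0.0510). It passed with DESeq2 (adjusted p = 0.0197), with edgeR's newer dispersion method (0.0491), with no filter (0.0477), and without asthma replicate 3 (0.0139), control replicate 3 (0.0438) or BSYQF replicate 3 (0.0497). BSYQF lungs had 29.9, 29.0 and 23.4 CPM, all below the asthma lungs and inside the range of the controls. Among epithelial markers, 2 of 4 of club and goblet cells (Muc5b and Muc5ac) and 1 of 3 of ciliated cells (Foxj1) rose in asthma. Scgb1a1 (0.51 ± 0.32), Scgb3a2 (-0.15 ± 0.33) and the ciliated marker Ccdc39 (-0.03 ± 0.25) were not called. Of alveolar type 2 markers 0 of 4 were called. Of basal cell markers 2 of 4 fell (Krt5 and Krt15), with Trp63 above 0 and not called. Of alveolar type 1 markers 1 of 5 fell (Clic5), with Aqp5 above 0 and not called. The ciliated sum was 166 to 224, 193 to 324 and 114 to 165 CPM in BSYQF, asthma and control lungs. The part of these epithelial cells in the level of Itgb6 was not tested. Itgb8, another activator of TGF-beta, was near 3 CPM in every group, at 3.18 ± 0.521, 3.32 ± 0.119 and 3.16 ± 0.743 CPM in BSYQF, asthma and control lungs. Itgb6 lies on the minus strand of chromosome 2 at 60598292 to 60722643.

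The 2 genes outside the true subunits were Itgb2l and Itgbl1. Itgb2l, a beta2-like gene known from mouse neutrophils, averaged 1.06 ± 1.11, 0.825 ± 0.168 and 0.983 ± 0.786 CPM in BSYQF, asthma and control lungs. Itgbl1, a secreted protein with beta-subunit repeats, had 5.69 ± 3.32, 2.93 ± 2.13 and 8.18 ± 2.47 CPM in BSYQF, asthma and control lungs (asthma over control -1.46 ± 0.55, adjusted p = 0.0909). It was called lower by DESeq2 (adjusted p = 0.0309) and without asthma replicate 3 (-2.27, adjusted p = 0.0127).

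Most laminin chains lay lower in asthma than in control lungs, but edgeR called 0 of the 11. The log2 fold change was below 0 for 9 of 11 chains, with a median of -0.51, against 0.02 over all genes tested, and 6 chains were lower and 1 higher at an unadjusted p under 0.05, where over all genes 15.1% were lower and 19% higher. DESeq2, which called 9.73% of all genes lower and 12.1% higher, called 5 chains lower (Lama3, Lama4, Lamb1, Lamb2 and Lamc3) and 0 higher, and limma voom called 0. The asthma and control libraries did not overlap for 7 lower chains and 1 higher chain, against 18.4% and 22% of all genes tested. The laminin sum was 1043 ± 150.4 CPM in BSYQF, 988 ± 222 CPM in asthma and 1280 ± 104 CPM in control lungs.

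**Figure D4:**
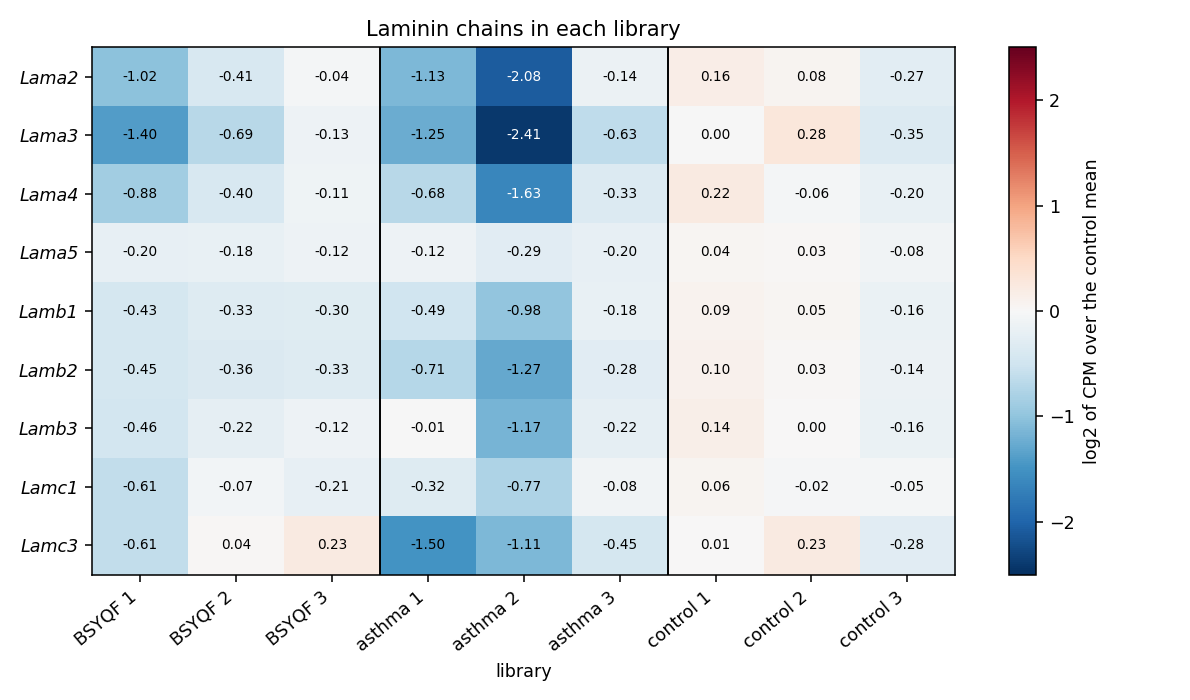
Level of 9 laminin chains in each library as log2 of CPM over the control mean, with BSYQF libraries at the left, asthma in the middle and control at the right; Lama1 is left out because it had 0 counts in 2 libraries. Blue is below and red above the control mean: asthma replicate 2 is the bluest column, with -2.41 for Lama3.

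Among the alpha chains, Lama3, part of the epithelial anchoring laminin together with Lamb3, had the largest log2 fold change in size. Lama3 stood at 57.8, 25.9 and 88.6 CPM in asthma replicates 1, 2 and 3 and at 137, 167 and 108 CPM in control lungs (-1.25 ± 0.42, adjusted p = 0.0699). No asthma library reached the controls. In BSYQF lungs it had 51.8, 85.0 and 125 CPM, a range that overlapped with both. Lama2, the chain of muscle and nerve, had 40.7 ± 13.2 CPM in BSYQF, 29.3 ± 18.7 CPM in asthma and 55.0 ± 8.38 CPM in control lungs (asthma over control -0.90 ± 0.41, adjusted p = 0.146). Lama4, the chain of vessels and fat, had 64.9 ± 16.8, 50.6 ± 20.7 and 87.3 ± 13.1 CPM in BSYQF, asthma and control lungs (-0.78 ± 0.29, adjusted p = 0.0902). Lama5, the main alpha chain of adult epithelial and vascular membranes, had 133.9 ± 3.96 CPM in BSYQF, 131 ± 7.65 CPM in asthma and 150.2 ± 6.98 CPM in control lungs.

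None of the 3 beta chains was called. Lamb2, the beta chain of mature vessels and muscle, had the smallest p-value of the laminins, with 171 ± 7.11 CPM in BSYQF, 137 ± 45.4 CPM in asthma and 222 ± 19.0 CPM in control lungs (asthma over control -0.70 ± 0.21, adjusted p = 0.0528). Lamb1, the broadly used beta chain, had 123.3 ± 5.87, 110.2 ± 29.7 and 157 ± 14.3 CPM in BSYQF, asthma and control lungs (asthma over control -0.51 ± 0.19, adjusted p = 0.0856). Lamb3 averaged 59.5 ± 6.95, 54.6 ± 20.4 and 71.4 ± 7.42 CPM in BSYQF, asthma and control lungs, and its asthma and control libraries overlapped (-0.38 ± 0.24, adjusted p = 0.287).

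Of the gamma chains 0 were called. Lamc3, a chain of low level, had 10.7 ± 2.99, 5.78 ± 2.19 and 11.2 ± 1.98 CPM in BSYQF, asthma and control lungs (asthma over control -0.95 ± 0.32, adjusted p = 0.0676). Lamc1 averaged 204 ± 38.0, 192 ± 44.9 and 247 ± 9.84 CPM in BSYQF, asthma and control lungs.

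Lama3 made up 20.1%, 26.1% and 31.4% of alpha chain CPM in BSYQF lungs, 20.9%, 13.6% and 26.2% in asthma lungs, and 30.1%, 36.1% and 29.0% in control lungs. The share was below that of every control in all 3 asthma libraries.

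**Figure D5:**
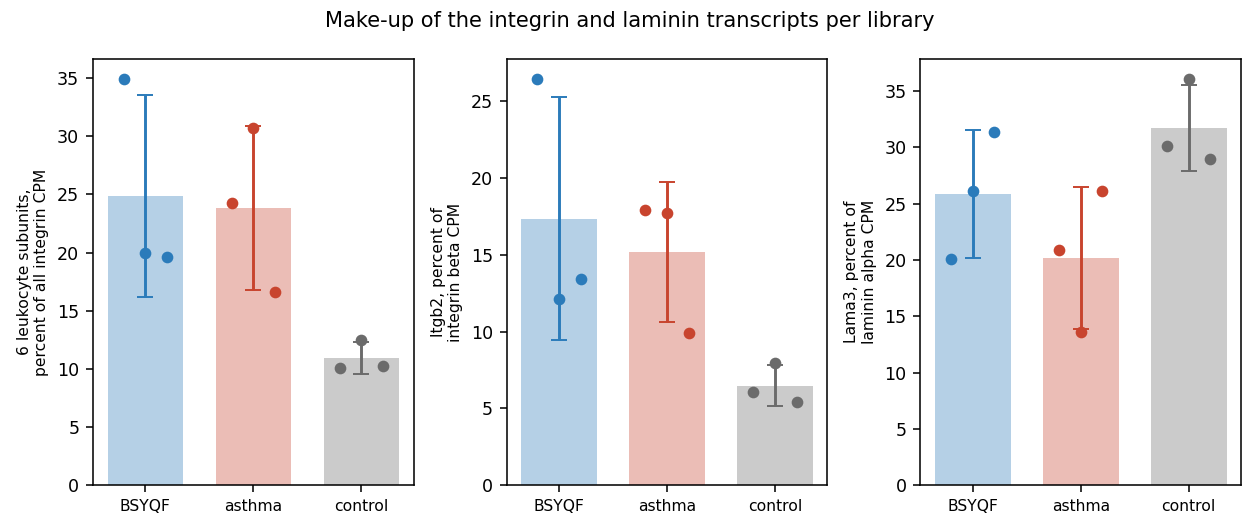
Share of 6 leukocyte integrin genes in all integrin CPM, of Itgb2 in integrin beta CPM and of Lama3 in laminin alpha CPM, in percent, for BSYQF, asthma and control lungs; points are libraries, bars the mean and error bars the SD of 3. For the first 2 shares the top library is a BSYQF one, and the Lama3 share is lowest in asthma replicate 2 at 13.6%.

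The laminin levels differed between asthma libraries. Of the 10 chains with a count in every library, 8 were lowest in asthma replicate 2, the library with the high mitochondrial share, and 7 were higher in asthma replicate 3 than in the other asthma libraries. Without asthma replicate 3, 6 chains fell (Lama2, Lama3, Lama4, Lamb1, Lamb2 and Lamc3) and 1 rose, against 13.7% and 14.8% of all genes. Without BSYQF replicate 1, 3 fell (Lama3, Lamb2 and Lamc3), against 7.58% of all genes. Beside the laminins, markers of several cell types with a basement membrane fell in asthma: 4 of 4 fat cell markers (46.6 to 258, 2.09 to 8.11 and 48.8 to 282 CPM summed in BSYQF, asthma and control lungs), 5 of 5 heart-type muscle markers, 2 of 4 basal cell markers (8.71 to 21.1, 2.02 to 3.68 and 7.78 to 10.4 CPM in the same groups) and 1 of 5 alveolar type 1 cell markers (3692 to 4182, 2898 to 4746 and 4911 to 5272 CPM in these groups). Of 3 mesothelial markers 0 were called and 3 were lower at an unadjusted p under 0.05 (131 to 196, 34.4 to 138 and 156 to 347 CPM in BSYQF, asthma and control lungs). Of 3 Schwann cell markers 0 were called and 2 were lower at an unadjusted p under 0.05 (79.1 to 99.6, 57.6 to 75.6 and 79.9 to 98.9 CPM in BSYQF, asthma and control lungs). Among these marker genes Lep was at 0 in all 3 asthma libraries, and Adipoq, Plin1 and Krt14 were each at 0 in 1 asthma library. Their part in the laminin levels was not tested.

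The other genes of the pathway were counted from 3 lists. Among 13 tested genes of other basement membrane proteins, 2 fell in asthma against control and 0 rose: Col4a5, a type IV collagen chain, at -1.06 ± 0.26 (adjusted p = 0.0323), and Nid1, the nidogen that links laminin to collagen, at -0.71 ± 0.21 (adjusted p = 0.0475). The list's median log2 fold change was -0.66, and the third smallest p-value was that of Nid2, the related nidogen, at -1.59 ± 0.48 (adjusted p = 0.0501). Among 16 integrin ligands 5 rose and 4 fell. Spp1, the secreted ligand osteopontin, rose by 4.42 ± 0.74 (adjusted p = 0.0109) to 787 ± 578 CPM in asthma, against 36.8 ± 3.46 CPM in control lungs. Adam8, a membrane protease and ligand of alpha9, rose by 2.54 ± 0.49 (adjusted p = 0.0161), and Npnt, the basement membrane ligand nephronectin, fell by 1.32 ± 0.25 on the log2 scale (adjusted p = 0.0124).

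Of 26 adaptors, kinases and membrane partners that work at the inner side of integrins or beside them, 2 rose and 5 fell in asthma against control. Cd63, a tetraspanin of lysosomes and granules that associates with integrins, changed by 1.86 ± 0.36 (adjusted p = 0.0137). Lims1, a scaffold of the integrin-linked kinase complex, and Tns3, a tensin that binds beta tails, changed by -0.66 ± 0.15 and -0.72 ± 0.18 (adjusted p = 0.0260 and 0.0345). The median of the list was -0.31.

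In BSYQF against asthma lungs, which asks what the formula changed in mice with the disease, 0 of the 37 genes were called higher and 0 lower by edgeR, where over all genes 0.00678% were called higher and 0% lower. DESeq2 and limma voom called 0 members as well. At an unadjusted p under 0.05, 1 member was higher (Lamc3) and 6 were lower, among them Itgam, Itga7, Itgb6, Itga3 and Itga5, where over all genes 3.79% were higher and 4.15% lower. Libraries of the 2 groups did not overlap for 0 higher and 3 lower members (Itga7, Itgb6 and Itga3), where over all genes tested 4.99% were higher and 4.76% lower without overlap.

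The 3 smallest p-values belonged to Itgam, Itga7 and Itgb6. Itgam averaged 26.2 ± 6.79 CPM in BSYQF and 47.5 ± 11.98 CPM in asthma lungs (-0.86 ± 0.24, adjusted p = 0.451). For Itga7 the means were 27.2 ± 4.31 CPM in BSYQF and 46.9 ± 9.69 CPM in asthma lungs (-0.78 ± 0.23, adjusted p = 0.509), and for Itgb6 27.4 ± 3.56 CPM in BSYQF and 47.5 ± 12.3 CPM in asthma lungs (-0.79 ± 0.25, adjusted p = 0.548). Itga3 and Itga5 lay at -0.36 ± 0.15 and -0.55 ± 0.23 (adjusted p = 0.616 for both). None of these differences passed the adjustment over all genes, and none did in any fit that left out 1 library, in which the lowest adjusted p was 0.0654 for Itgam.

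Itgax and Itgb2 lay at -0.25 ± 0.57 and 0.21 ± 0.33 in BSYQF over asthma (adjusted p = 0.907 and 0.845). Both signs turned when single libraries were left out: Itgax was at 0.18 without BSYQF replicate 3 and 0.11 without asthma replicate 2, and Itgb2 at -0.25 without BSYQF replicate 1 and -0.01 without asthma replicate 3. Macrophage markers were called in 0 of 7 in BSYQF against asthma, with a median of -0.16. Itga1 lay at 0.34 ± 0.27 (adjusted p = 0.694).

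Of the 11 laminin chains 10 had a log2 fold change above 0 in BSYQF against asthma, with a median of 0.19, and none was called. Lamc3 (0.88 ± 0.32, adjusted p = 0.581) and Lama3 (0.60 ± 0.41, adjusted p = 0.658) were the largest of their groups. This comparison shares its asthma libraries with that of asthma against control, so opposite signs in the 2 are not separate evidence. Of the basal cell markers 1 of 4 rose in BSYQF against asthma. All 9 fat cell and heart-type muscle markers were higher at an unadjusted p under 0.05 with 0 called, and the part of these cells in the laminin values was not tested. Basement membrane, ligand and adaptor lists had 0 called genes, with medians of 0.22, -0.20 and 0.14.

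The comparison of BSYQF with control lungs asks what differed from normal mice under the formula. Of the 37 genes 0 were called higher and 0 lower by edgeR, against 1.63% and 0.0407% of all genes. DESeq2 called 3 higher (Itga7, Itgax and Itgb2) and 1 lower (Itga1), against 4.22% and 0.842% of all genes, and limma voom called 0. Counted at an unadjusted p under 0.05, there were 4 higher members (Itga7, Itgam, Itgax and Itgb2) and 1 lower member (Itga1), where over all genes 10.1% were higher and 5.7% lower. Libraries did not overlap for 4 higher and 7 lower members, against 13% and 11.8% of all genes.

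Itgb2 had the smallest p-value of this comparison among the members, with 231 ± 112 CPM in BSYQF and 88.8 ± 24.0 CPM in control lungs (1.38 ± 0.34, adjusted p = 0.0726). It was called without asthma replicate 3 (adjusted p = 0.0385) and in a fit with a replicate block (1.31, adjusted p = 0.0476). Itgax averaged 170.1 ± 151.8 CPM in BSYQF and 31.2 ± 0.790 CPM in control lungs (2.45 ± 0.61, adjusted p = 0.0881), and was called without BSYQF replicate 3 (2.87, adjusted p = 0.0222). Without BSYQF replicate 1, the library highest in both genes, Itgax lay at 1.43 (adjusted p = 0.165) and Itgb2 at 0.90 (adjusted p = 0.21); over all 9 fits without 1 library the adjusted p reached 0.284 for Itgax and 0.259 for Itgb2. Itga7, Itgam and Itga1 lay at 0.84 ± 0.24, 0.77 ± 0.24 and -0.86 ± 0.27 (adjusted p = 0.116, 0.154 and 0.159). Macrophage markers were higher in 3 of 7 by call and in 7 of 7 at an unadjusted p under 0.05, with a median of 1.74. Other leukocyte lists were higher at an unadjusted p under 0.05 in 4 of 4 B cell, 3 of 3 T cell, 2 of 3 general leukocyte, 3 of 6 dendritic cell and 1 of 4 neutrophil markers, of which 1 dendritic cell marker (Fscn1) was called. The other 3 dendritic cell markers lay below 0, with Clec9a lower at an unadjusted p under 0.05 (-0.547 ± 0.175, adjusted p = 0.161). Among neutrophil markers Csf3r lay below 0 (-0.496 ± 0.578, adjusted p = 0.705). Summed B cell markers had 279.5 to 468 CPM in BSYQF and 118 to 299 CPM in control lungs, and T cell markers 57.3 to 79.1 CPM in BSYQF and 29.8 to 49.2 CPM in control lungs. Their part in the levels of Itgb2 and Itgax was not tested.

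The laminin chains had a median of -0.28 in BSYQF against control, with 9 of 11 below 0 and 0 at an unadjusted p under 0.05. Lamb2 lay at -0.38 ± 0.21 (adjusted p = 0.412), and Lamc1 at -0.28 ± 0.20 (adjusted p = 0.512). Itgb6 lay at 0.05 ± 0.25 (adjusted p = 0.942), with an SE larger than the change. In the other lists, 1 of 26 adaptors was called, and it rose (Parvg, a leukocyte parvin, 0.96 ± 0.19, adjusted p = 0.0338, named after its value was seen). The adaptor median was -0.279, with 11 genes above and 15 below 0. At an unadjusted p under 0.05, 5 adaptors were higher and 9 lower, against 10.1% and 5.7% of all genes. The basement membrane and ligand lists had 0 called genes, with medians of -0.446 and 0.235. Of 13 basement membrane genes 12 lay below 0, with 3 lower and 0 higher at an unadjusted p under 0.05. Among ligands 4 were higher and 3 lower by that measure.

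The authors' deposited tables, which are restricted to genes with a p under 0.05 and a change of 1 or more on the log2 scale, held 7 members among 1746 genes for asthma against control: Itgax, Itgam, Itga7 and Itgb2 higher, and Itga1, Lama3 and Itgbl1 lower. In the authors' deposited table Lama3 had a log2 fold change of -1.28 with an adjusted p of 0.00393. For BSYQF against control the authors' deposited table held Itgb2 and Itgax, both higher, among 896 genes, and for BSYQF against asthma 0 members among 424. For scale, 37 of the 21983 gene symbols with counts were members.

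Counting could touch some members. Exons of 10 members share bases with another annotated gene, most in Itgam, where Gm49368 covers 3450 of 5024 exon bases; Gm49368 had 6 to 50 counts per library and Itgam 232 to 989. How shared reads and strand were handled is not stated.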

How the data were processed

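Lung RNA was isolated with Trizol and made into NEBNext Ultra libraries, per the labels' protocols. STAR, HTSeq, cutadapt, FastQC, DESeq2 and the build mm10 are listed, without versions, in the submitters' processing notes; annotation, read layout and strand setting are not stated. Raw counts of reads per gene, as whole numbers deposited by the authors, were the input here. Tables of 3 comparisons deposited by the authors hold log2 fold changes and p-values, per the file headers; 36 further columns of values per library in those tables were not used.

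Counts were filtered with filterByExpr, scaled by TMM with factors of 0.914 to 1.07. The model, in edgeR 4.0.16 under R 4.3.3, held all 3 groups and no replicate block, and used robust glmQLFit and glmQLFTest; its biological coefficient of variation was 0.244. The scripts were tested on simulated data. Groups and replicate numbers came from the titles. The SE is the log2 fold change divided by the square root of F. Exon lengths and coordinates come from GENCODE vM21 (GRCm38), 1-based, in which 37 of 37 symbols matched. A depth of 3 counts equals 0.132 to 0.184 CPM. Alternatives were RLE size factors, DESeq2 1.42.0, limma 3.58.1 voom, edgeR's newer dispersion method, no filter, 2-group fits, a replicate block, leaving out each library and longest transcripts.

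The members, role groups, marker lists and pathway lists were chosen with earlier results of these data known. Values in every library are given for members called in any comparison or among the 3 smallest p-values of one; in each role group the member of largest change is named, and from each pathway list the 3 genes with the smallest p-values in asthma against control. Library values of Lama3, and values of other members, were added after they were seen. The values of 1 laminin chain, which enters the counts, medians and sums, are not reported here.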

Additional observations from a re-analysis of the deposited data

How the results depend on the processing

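In asthma against control, the count of members that rose stayed within 1.5 times of 4 under other size factors, DESeq2, limma voom, edgeR's newer dispersion method, no filter, 2-group fits and the replicate block. Over all genes these fits called 5.05% to 12.1% higher. The count ranged from 2 to 7 when 1 library was left out, against 0.95% to 14.8% of all genes. The count that fell was 2 with RLE size factors (Itga1 and Lamb2), 8 with DESeq2 and 0 to 9 when 1 library was left out. Over all genes 4.81%, 9.73% and 0.134% to 13.7% fell in the same fits. In BSYQF against asthma 0 members were called in every fit run, where over all genes 0% to 0.567% were higher and 0% to 0.335% lower. In BSYQF against control DESeq2 called 3 higher and 1 lower, against 4.22% and 0.842% of all genes. Fits of this comparison without 1 library called 0 to 1 higher, against 0.0603% to 3.15% of all genes. With the replicate block 1 was higher (Itgb2), against 1.54% of all genes. The other counts with the block were 4 higher and 1 lower in asthma against control (6.16% and 3.81% of all genes) and 0 elsewhere. Deviations of same-numbered libraries from their group means correlated at -0.26 to 0.34. With 3 libraries a group, these values cannot tell whether same-numbered libraries share more than a label. All 111 log2 fold changes were refitted under the alternatives, and 50 of them were compared with the main fit. These 50 were picked for a call, a small p-value or the largest change in a role group, with Lamb3 in asthma against control added. Counts over them therefore do not stand for all 111. Signs turned for 3 of the 50 in fits without 1 library: BSYQF over asthma for Itgax (-1.25 to 0.18) and Itgb2 (-0.25 to 0.44), and BSYQF over control for Itgb6 (-0.13 to 0.34). Of the other values of these 50 over all settings, 741 kept sign and call, 34 gained a call and 17 lost one. Only 5 of the 50 were called in the main fit, so most of the 741 were uncalled values that stayed uncalled. The 17 lost calls all belonged to Itga1, Itgax and Itgb2 in asthma against control. Levels per length moved by more than 1 SD for 18 of 37 genes with the longest transcript. The causes were not tested. Depth limited Lama1, Itgb2l, Itga10 and Itga11, whose group means were 2.29 CPM or lower.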
